A study of Mus musculus with 4 samples.

Results

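The genes for presentation of peptides by major histocompatibility complex (MHC) class I were followed in single-cell RNA-sequencing (scRNA-seq) of spleen and bone marrow (BM) from mice with and without a mammary tumor. The 8 members, B2m, H2-K1, H2-D1, H2-T23, Tap1, Tap2, Tapbp, and Nlrc5, are a list of names with no threshold on their values, and all 8 are among the 32285 genes counted. The list was drawn up with earlier results of these data known. The level of each was measured as UMIs (unique molecular identifiers, which mark single RNA molecules) per 1000000 UMIs (CPM), in cell classes named from marker genes and in barcodes with at least 1000 genes and at most 10% of UMIs from mitochondrial genes. All 8 had UMIs in every library, and 7 of the 8 reached a mean of 20 CPM in most comparisons, while Nlrc5 stayed below it in every comparison of classes as scaled here and enters no count of calls between classes, apart from 1 scaling given with the alternatives.

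The mice were female C57BL/6J, 8 to 16 weeks of age, and 4 groups were sequenced with 1 library each, the spleen of control mice (CS), the spleen of mice with a tumor (TS), and the BM of each (CBM and TBM). Tumors grew from PyMT-B6 cells injected under the skin of the flank, a line derived from mammary tumors of MMTV-PyMT mice, in which the mammary tumor virus promoter drives the polyoma middle T oncogene. Both tissues were digested with collagenase and DNase, depleted of lineage-positive (Lin+) cells, and sorted into CD45+/c-Kit+ gates with and without Sca-1 and into CD45- gates by CD31 and CD51, and equal shares of these populations were pooled, so the cells are a sorted pool and not the organ. The number of mice behind a library is not given in the sources used here. With 1 library per group no test between groups was possible, and all intervals below are 95% intervals that cover counting error only.

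MHC class I molecules display peptides from inside the cell to CD8+ T cells and are made by nearly all nucleated cells. The polymorphic heavy chains, encoded in these mice by H2-K1 and H2-D1, fold with beta-2 microglobulin, the product of B2m, and H2-T23 encodes Qa-1, a class Ib heavy chain seen by inhibitory receptors of NK cells. Tap1 and Tap2 form the transporter that carries peptides from the cytosol into the endoplasmic reticulum, where tapasin, the product of Tapbp, holds the empty heavy chain next to it. Nlrc5 is the transactivator of class I genes, and interferons induce the whole set, in part through the transcription factor Irf1.

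The class I promoters carry short elements through which these signals are known to act, and the 250 bases before the transcription start are shown for B2m, for H2-K1, and for H2-Q7, a class Ib gene whose levels are given below. They come from RefSeq (GRCm38.p6), at chr2:122147437-122147686 on the plus strand for B2m, chr17:34000348-34000597 on the minus strand for H2-K1 (the start site farther upstream of the 2 listed), and chr17:35438905-35439154 on the plus strand for H2-Q7. Capitals mark, on either strand, the κB site GGGATTCCC, the interferon response core GAANNGAAA, its variant AAANNGAAA, TGACG, and CCAAT, some of which can overlap.
B2m: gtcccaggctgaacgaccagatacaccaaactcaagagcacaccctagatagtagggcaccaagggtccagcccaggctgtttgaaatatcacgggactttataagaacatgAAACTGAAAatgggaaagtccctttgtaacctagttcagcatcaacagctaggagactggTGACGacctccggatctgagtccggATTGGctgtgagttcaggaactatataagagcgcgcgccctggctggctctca
H2-K1: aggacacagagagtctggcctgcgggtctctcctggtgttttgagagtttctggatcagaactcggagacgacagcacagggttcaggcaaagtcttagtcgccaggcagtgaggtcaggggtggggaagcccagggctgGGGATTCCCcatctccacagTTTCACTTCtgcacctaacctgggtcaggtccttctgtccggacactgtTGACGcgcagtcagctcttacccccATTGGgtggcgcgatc
H2-Q7: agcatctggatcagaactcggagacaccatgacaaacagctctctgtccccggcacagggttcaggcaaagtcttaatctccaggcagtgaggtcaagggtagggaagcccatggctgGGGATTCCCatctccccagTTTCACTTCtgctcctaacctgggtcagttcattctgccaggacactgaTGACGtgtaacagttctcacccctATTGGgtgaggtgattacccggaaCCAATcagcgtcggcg
H2-K1, H2-D1, H2-Q6, and H2-Q7 held the κB letters, which 99 of 32851 mouse promoters of this length hold (0.301%). 11 bases lay between the κB letters and the interferon response core in H2-K1, H2-D1, and H2-Q6 and 10 bases in H2-Q7, and 6.31% of all promoters hold the core. H2-Q4 held the core without the κB letters. Only these exact κB letters were searched for, so other forms of a κB site in B2m, H2-Q4, or the other promoters were not sought. B2m and H2-T23 held the variant instead, 138 and 124 bases before their starts, which 9.37% of promoters hold, and TGACG (17.8% of promoters) and CCAAT (33.8%) are common. Tap1 and Tapbp held neither interferon element in this window, which says only that these letters were not found there. The promoter of H2-D1 shares an identical stretch of 47 bases with that of H2-K1, the κB letters included, while the longest stretch shared by H2-K1 and H2-Q7 is 24 bases. The window of H2-D1 (35262844 to 35263093) lies inside the gene as annotated, as does that of Tapbp (33919228 to 33919477) and part of that of H2-T23 (36032702 to 36032951), so these windows may not be the promoter of every transcript.

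Of the 8 genes, 6 lie in the MHC region of chromosome 17 (GRCm38). These are H2-K1 (ENSMUSG00000061232, 33996017 to 34000347, minus strand), Tapbp (ENSMUSG00000024308, 33915899 to 33929292), Tap1 (ENSMUSG00000037321, 34187553 to 34197225), Tap2 (ENSMUSG00000024339, 34203527 to 34216321), H2-D1 (ENSMUSG00000073411, 35262730 to 35267499), and H2-T23 (ENSMUSG00000067212, 36029773 to 36032855, minus strand). B2m (ENSMUSG00000060802) lies on chromosome 2 from 122147686 to 122153083, and Nlrc5 (ENSMUSG00000074151) on chromosome 8 from 94434356 to 94527272. Tap1 overlaps Psmb9 on the other strand, and B2m overlaps Patl2. H2-T23, Tap2, Tapbp, and Nlrc5 overlap other annotated genes, mostly on the other strand, and counts at such overlaps are uncertain where strand was not used in counting. The heavy chains are close relatives, and H2-Q6 and H2-Q7 are nearly identical, so reads of 1 can be lost or split between them.

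The filter left 16261 cells, between 3236 in CS and 5188 in TS, from libraries of 101811035 to 176094297 UMIs. Spleen cells were deeper, with median UMI numbers of 26322.5 (CS) and 26808 (TS) against 13738 (CBM) and 14386 (TBM), so levels were summed over cells before scaling. 27 barcodes were shared by 2 or more libraries. Free RNA, taken from barcodes with at most 100 UMIs, held B2m at 1477 CPM in CS, 739 in TS, 1175 in CBM, and 841 in TBM, close to the sums over all cells, which were 1304, 727, 1145, and 806 for the same libraries. The part of free RNA in the results below was not tested beyond the subtraction given with the alternatives.

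Across the 31 pairs of a class and a library with at least 50 cells, the mean log2(CPM + 1) of the members, relative to each gene's mean over the pairs, was highest in conventional dendritic-like cells of CS (1.33), followed by T, NK, or innate lymphoid-like cells of CS (0.88), and lowest in hemoglobin-rich erythroid-like cells of TS (−1.48). B2m was highest in the T, NK, or innate lymphoid-like cells of CS at 1916 CPM (1855 to 1977), beside conventional dendritic-like cells of CS at 1856 (1827 to 1886) and B-lineage-like cells of CBM at 1817 (1751 to 1885). These 3 intervals overlap, so their order cannot be told. B2m was lowest at 511 (456 to 570) in the neutrophil-like cells of TBM, the 1 library with at least 50 such cells. That is a 3.75-fold range for B2m, which was the narrowest of the 7 members with UMIs in every pair, while the range was 8.87-fold for H2-K1, 5.35-fold for H2-D1, 8.56-fold for H2-T23, 14.2-fold for Tap1, 9.18-fold for Tap2, and 5.72-fold for Tapbp.

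**Figure D1:**
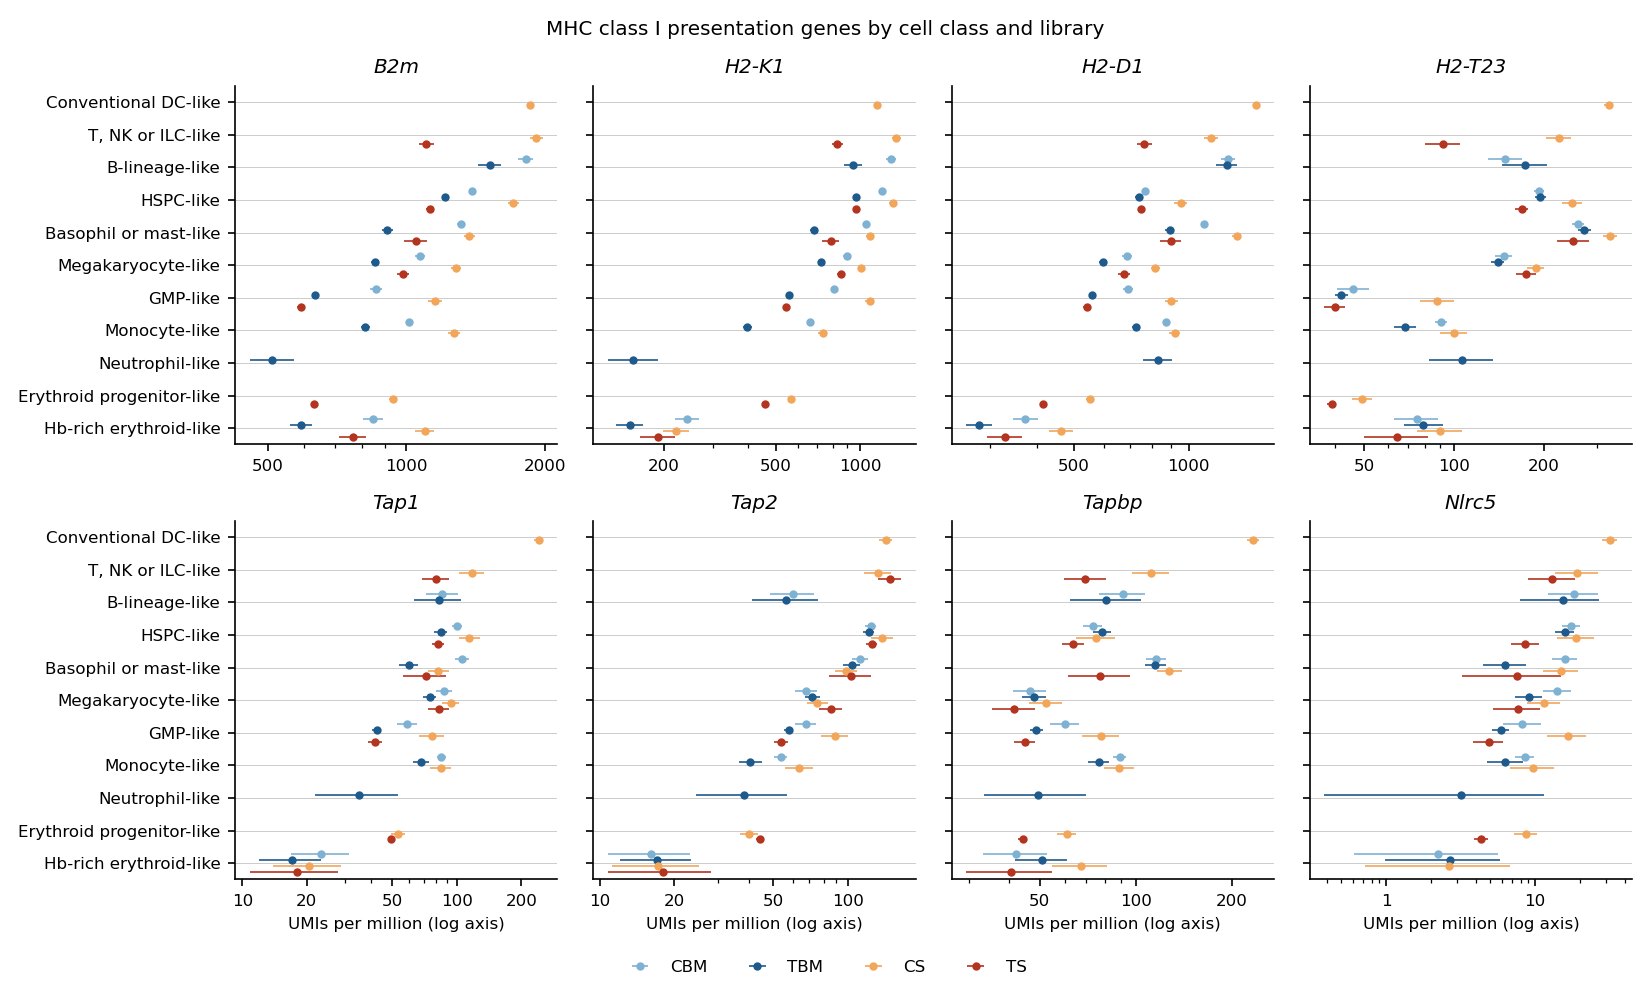
Level of each member (CPM, log axis) by cell class; each point is 1 library, with exact Poisson 95% intervals for counting error, and classes with under 50 cells in a library are not drawn (nor a level of 0 UMIs). B2m runs from 511 to 1916, and the TS points lie left of the CS points in all 7 classes drawn for both.

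The class Ia heavy chains did not follow 1 order. H2-K1 was highest in the T, NK, or innate lymphoid-like cells of CS at 1342 CPM (1292 to 1394), next to HSPC-like cells (hematopoietic stem and progenitor cells) of CS at 1308 (1265 to 1351) and B-lineage-like cells of CBM at 1285 (1230 to 1342), and these intervals overlap. H2-D1 was highest in conventional dendritic-like cells of CS at 1506 (1480 to 1533). H2-K1 was lowest in hemoglobin-rich erythroid-like cells, with 221 CPM in CS, 190 in TS, 242 in CBM, and 151 in TBM, and almost as low in the neutrophil-like cells of TBM at 156. H2-D1 stood at 829 in those same neutrophil-like cells.

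H2-T23 was highest in basophil or mast-like cells of CS at 333 CPM (315 to 352) and in conventional dendritic-like cells of CS at 329 (317 to 341), and lowest in erythroid progenitor-like cells of TS at 38.9. The transporter genes were low beside the heavy chains, on this scale that counts 3′ ends and so does not depend on transcript length. Tap1 reached 241 (231 to 252) and Tapbp 233 (223 to 243) in conventional dendritic-like cells of CS, above their levels in every other class and library compared, and Nlrc5 also was highest there at 31.7 (28.0 to 35.7). Tap2 was highest in the T, NK, or innate lymphoid-like cells of TS at 148 (133 to 164), an interval that overlaps those of CS dendritic-like cells at 142 and of HSPC-like cells of CS at 137. Nlrc5 was at 0 UMIs in the 62 hemoglobin-rich erythroid-like cells of TS, which allows up to 3.49 CPM by the exact interval.

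In the comparison of TS with CS, which asks how the tumor-bearing spleen differs within a cell class, class I genes were lower in TS in most classes. 7 classes had at least 50 cells in both libraries. B2m was lower in TS in 7 of 7 classes, with log2 ratios from −0.96 to −0.38 and a median of −0.57, and H2-D1 was lower in 7 of 7 with ratios from −0.74 to −0.28; each of these intervals lay below 0. H2-K1 and H2-T23 were lower in 7 of 7, with 6 of 7 intervals below 0 for each, Tap1 in 7 of 7 with 4 intervals below 0, and Tapbp in 7 of 7 with 7 intervals below 0. Tap2 was the exception, with lower values in only 2 of 7 classes and a median log2 ratio of 0.07. Its interval lay above 0 in erythroid progenitor-like cells and below 0 in GMP-like cells (granulocyte-monocyte progenitors), at −0.72.

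With a fold of at least 1.5 and a mean of at least 20 CPM as the call, 15 of 47 pairs of a class and a member were lower in TS and 0 were higher, while 7.53% of all gene and class pairs were lower and 7.15% higher. The calls came from GMP-like cells (7 of 15), T, NK, or innate lymphoid-like cells (5 of 15), and 1 each in HSPC-like cells, basophil or mast-like cells, and hemoglobin-rich erythroid-like cells. The median log2 ratio of the members ran from −0.89 in GMP-like to −0.24 in megakaryocyte-like cells, while the median of all genes tested ran from −0.04 to 0.19 over the same classes.

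**Figure D2:**
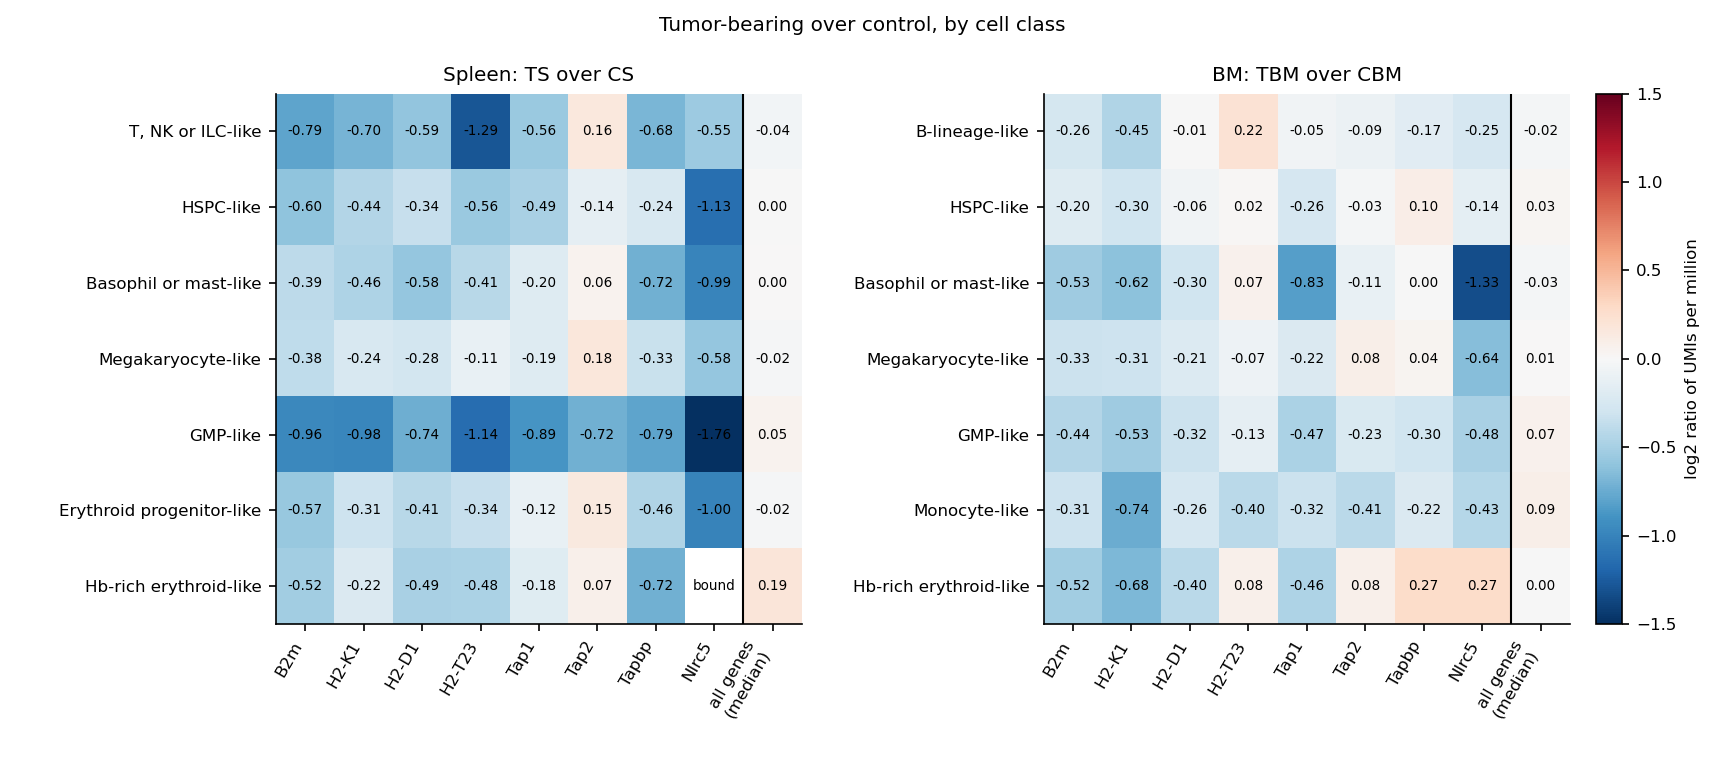
Log2 ratios of CPM, tumor-bearing over control, for each member and cell class, with TS over CS on the left and TBM over CBM on the right; the last column of each panel is the median over all genes tested, and blue is lower in the tumor-bearing library. B2m and H2-K1 are negative in all 7 classes of both tissues, Tap2 lies between −0.14 and 0.18 outside GMP-like and monocyte-like cells, and the box marked bound had 0 UMIs in TS.

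In HSPC-like cells, among those the c-Kit+ gates select, B2m stood at 1707 CPM in CS, 1124 in TS, 1389 in CBM, and 1213 in TBM. CS was thus the highest and TS the lowest, with a log2 ratio of TS over CS of −0.60 (−0.65 to −0.55). H2-K1 stood at 1308, 967, 1192, and 968 in the same order of libraries, so TBM and TS were alike within their intervals and both controls were higher. The ratio of H2-K1 in TS over CS was −0.44 (−0.49 to −0.38), and H2-D1, at 953, 752, 769, and 739, had a ratio of −0.34 (−0.41 to −0.28). H2-D1 in CS stood above the other 3 libraries. The HSPC-like cells of BM sat mostly in cluster c0, with 639 of 753 in CBM and 578 of 736 in TBM. Those of TS sat mostly in c15 (422 of 670), which held 9 TBM cells and 0 CBM cells. Levels of spleen and BM in this class thus come from different mixes of clusters.

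H2-T23 in HSPC-like cells stood at 248 CPM in CS, 168 in TS, 192 in CBM, and 195 in TBM, with CS the highest and a TS over CS ratio of −0.56 (−0.69 to −0.43). Tap1 stood at 115 in CS, 81.8 in TS, 101 in CBM, and 84.1 in TBM, and was lower in both tumor-bearing libraries, with a ratio of −0.49 (−0.67 to −0.30) in spleen. Its partner Tap2 stood at 137, 125, 124, and 121, and its ratio of −0.14 (−0.30 to 0.03) cannot be told from 0. Tapbp ranged only from 63.7 in TS to 78.4 in TBM. Nlrc5, at 18.9 in CS, 8.61 in TS, 17.5 in CBM, and 15.9 in TBM, was lowest in TS, with a ratio to CS of −1.13 (−1.64 to −0.61).

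Of the 7 members tested in HSPC-like cells, 1, B2m, passed the 1.5-fold call in TS over CS, where 4.55% of 6219 genes were lower and 3.39% higher by this call. 0 of 7 passed it in TBM over CBM, where 0.761% of genes were lower and 1.68% higher. B2m lies close to the call and loses it in 4 of the alternatives given below, while its ratio stays negative. The 129 HSPC-like cells of CS and the 670 of TS come from 3 clusters in different shares, and B2m was lower in TS within each of them, by a log2 ratio of −0.58 in c0 (39 TS and 55 CS cells), −0.56 in c13 (209 and 26), and −0.56 in c15 (422 and 48). H2-K1 was lower within each as well, by −0.29, −0.54, and −0.34.

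After each HSPC-like cell was thinned to 2000 UMIs, 98.4% of CS, 88.8% of TS, 95.1% of CBM, and 92.2% of TBM cells held a UMI of B2m, while the unthinned shares were 99.85% in TS and 100% in the other 3 libraries. For H2-T23 the thinned shares were 47.3%, 29.6%, 33.1%, and 33.3%, and the unthinned 99.2%, 90.4%, 91.1%, and 92.0%. In hemoglobin-rich erythroid-like cells, a class low in H2-T23, the thinned share was 22.7% in CS, 16.1% in TS, 12.8% in CBM, and 16.7% in TBM, with median depths of 12155.5 to 18397.5 UMIs against 12245.5 to 18629 in HSPC-like cells. 1 HSPC-like cell of TBM was too shallow and was left out.

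GMP-like cells, named for granulocyte-monocyte progenitors by Mpo, Elane, and other granule genes, had the lowest median of the members in spleen, a value that depended on 1 shallow cluster. B2m stood at 1152 CPM in CS, 591 in TS, 858 in CBM, and 632 in TBM. H2-K1 stood at 1080, 546, 809, and 559 in that order, H2-D1 at 900, 540, 693, and 556, and H2-T23 at 87.8, 39.9, 46.0, and 42.0. For each of these genes CS was the highest, and TS and TBM were the lower libraries. The interval of the TS over TBM ratio lay below 0 for B2m (−0.10) and H2-D1 (−0.04). The TS over CS log2 ratio was −0.96 (−1.02 to −0.91) for B2m, −0.98 for H2-K1, −1.14 for H2-T23, −0.89 for Tap1, −0.72 for Tap2, and −0.79 for Tapbp, and all 7 members tested passed the call, where 9.54% of genes were lower and 8.94% higher.

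The GMP-like cells of the spleens sat mostly in different clusters. CS had 71 of its 128 cells in cluster c24 and 50 in c3, while TS had 331 of 445 in c9 and 98 in c3, and the median depth was 5363 UMIs in CS and 34098 in TS. Cluster c24 was shallow, with a median of 2642 UMIs, and high in H2-K1, at 1952 CPM in CBM, 2516 in TBM, and 2787 in CS. Without c24, 3 of 7 members passed the call in TS over CS, where 4.67% of genes were lower and 8.64% higher. The median log2 ratio of the members was then −0.53, above the −0.68 of T, NK, or innate lymphoid-like cells. Within c3 alone, which leaves out c24 and c9, 7 of 7 passed, where 9.49% of genes did (7.79% higher), with a median of −1.02, and B2m stood at 458 in TS and 1155 in CS. At resolution 2 an unnamed cluster led by S100a8 and S100a9 held 30 TS cells and 1 CS cell. A GMP-like cluster led by Elane held 68 TS and 49 CS cells, so c3 may not hold the same mix of cells in both libraries. MHC class II genes, which mark other presenting cells, summed to 85.6 CPM in TS and 187 in CS, and genes of dissociation and immediate early responses to 1668 and 2270, with 4 of 7 lower in TS. Their part in the difference was not tested.

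Within the T, NK, or innate lymphoid-like cells, 122 in CS and 129 in TS, B2m stood at 1916 CPM in CS and 1105 in TS, H2-K1 at 1342 and 828, H2-D1 at 1147 and 764, and H2-T23 at 224 and 91.7. The H2-T23 log2 ratio of −1.29 (−1.53 to −1.05) was the largest of any member in this class, and Tap2 differed in sign, at 132 in CS and 148 in TS. Here 5 of 7 members passed the call, where 17.3% of genes were lower and 10.6% higher. Cluster c31 held 43 of the CS cells and 21 of the TS cells and c26 the others, and within c26 alone 3 of 7 passed, where 17.4% of genes were lower and 9.06% higher, with a median of −0.57. The 7 class II genes listed were all at least 1.5-fold lower in TS in this class, and they summed to 7232 CPM in CS and 423 in TS, while 7 of 8 dissociation genes were lower and summed to 3932 and 1920. Over all classes 8 of the 15 class II pairs called lower in TS reached the mean of 20 CPM through CS alone. Without cells that held over 1000 CPM of class II genes, 88 CS and 123 TS cells were left, and 4 of 7 members passed, where 15.8% of genes were lower and 8.18% higher, with a median log2 ratio of −0.59.

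Erythroid progenitor-like cells, the most numerous named class of TS with 1965 cells, had 0 of 7 members past the call, where 1.33% of genes were lower and 1.48% higher. B2m was nevertheless lower, at 934 CPM in CS and 628 in TS (log2 ratio −0.57, −0.60 to −0.54), and H2-K1 was at 566 and 457. The CS cells sat mostly in cluster c8 (135 of 191) and the TS cells mostly in c1 (1085) and less in c8 (483) and c18 (397). Within c8 alone 1 of 7 members passed, B2m, where 1.14% of genes were lower and 0.638% higher, with a median log2 ratio of −0.44. At resolution 2 the erythroid progenitor-like cluster led by C1qtnf12 held 33 CS and 469 TS cells, and that led by Bex4 held 374 and 13. At resolution 0.6 the class held 404 CS and 1484 TS cells, so it held fewer CS cells here than at the other resolutions. Unnamed cluster c7, for which erythroid progenitor markers scored highest, held 555 CS and 139 TS cells and is not in the class. Basophil or mast-like cells had 1 of 7 lower (12.1% of genes lower, 8.20% higher), Tapbp, at 127 in CS and 77.2 in TS. Of these cells c2 held 297 of 428 in CS, while TS was split between c10 (48 of 124) and c2 (45), and within c2 and c10 the B2m log2 ratios were −0.51 and −0.57. At resolution 2 the basophil or mast-like cluster led by Ccl3 held 288 CS and 17 TS cells, and that led by Ccl6 held 9 and 28. Hemoglobin-rich erythroid-like cells had 1 of 5 lower (4.78% of genes lower, 16.9% higher), also Tapbp. Megakaryocyte-like cells had 0 of 7 (1.79% of genes lower, 2.48% higher), with B2m at 1281 in CS and 982 in TS. Their Tap2 was at 75.5 in CS and 85.3 in TS, a log2 ratio of 0.18 (−0.04 to 0.39).

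**Figure D3:**
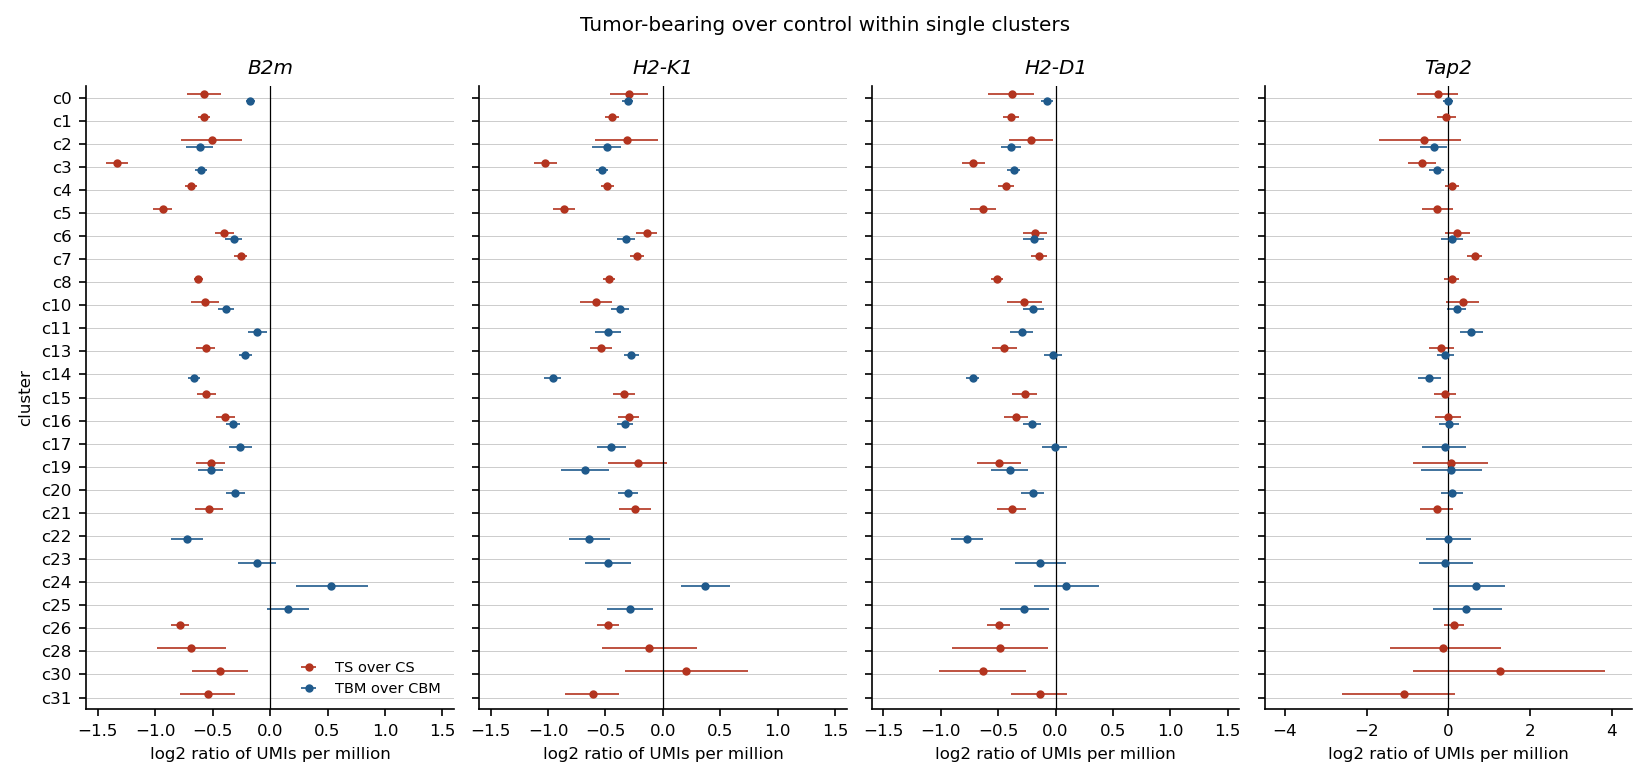
Log2 ratios of CPM within single clusters of at least 20 cells in both libraries, for B2m, H2-K1, H2-D1, and Tap2 (wider axis), with 95% counting intervals; red is TS over CS and blue TBM over CBM. B2m is negative in all 19 clusters of the spleen comparison and in 14 of 16 of the BM comparison, and Tap2 lies on both sides of 0.

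Within single clusters with at least 20 cells in both libraries, B2m was lower in TS than in CS in 19 of 19, from −1.33 to −0.26, with each interval below 0. H2-D1 was lower in 19 of 19 and H2-K1 in 18 of 19, while Tap2 was lower in 11 of 19, with 1 interval below and 1 above 0. Tap1 was lower in 17 of 19 with 8 intervals below 0, and Tapbp in 16 of 19 with 10 below 0. The clusters of 1 library are not replicates, since they share its preparation and free RNA, so these counts describe how even the difference was over cell types and not how well it would repeat.

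In BM B2m, H2-K1, H2-D1, and Tap1 were lower in TBM in 7 of 7 classes, and the other members were less even. The medians over the classes were nearer 0 than in spleen for B2m and H2-D1, but not for H2-K1 or Tap1. In TBM over CBM, 4 of 48 pairs of a class and a member (8.33%) passed the call as lower, where 4.06% of all pairs did, and 0 passed as higher, where 4.74% did. B2m and H2-K1 were lower in TBM in 7 of 7 classes with every interval below 0, with medians of −0.33 and −0.53. H2-D1 was lower in 7 of 7 with 6 intervals below 0, Tap1 in 7 of 7 with 5, and H2-T23 in only 3 of 7, with a median of 0.02. Tapbp was lower in 4 of 7 (median −0.004), Tap2 in 5 of 7 (−0.09), and Nlrc5 in 6 of 7 (−0.43), each with 2 intervals below 0. Over the classes the median of the members ran from −0.43 to −0.06, and that of all genes from −0.03 to 0.09.

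Monocyte-like cells had the largest H2-K1 difference in BM. H2-K1 stood at 664 CPM in CBM, 396 in TBM, and 735 in CS, so TBM was the lowest, with a log2 ratio of −0.74 (−0.80 to −0.69) to CBM. H2-D1 differed less, at 870, 728, and 920, and 1 of 7 members passed the call, where 3.32% of genes were lower and 5.97% higher. The TBM cells sat mostly in cluster c14 and the CBM cells mostly in c11. Within c14 (235 TBM and 256 CBM cells) 5 of 7 members passed, where 6.52% of genes did (6.11% higher), with a median of −0.72, and within c11 (36 and 452 cells) H2-K1 was at −0.48 and B2m at −0.11, while Tap2 was higher in TBM at 0.56 (0.28 to 0.84). At resolution 2 a monocyte-like cluster led by Chil3 held 206 TBM cells and 1 CBM cell. Another, led by Lyz2, held 15 TBM and 251 CBM cells, so the ratios within c14 may compare unlike monocyte-like cells.

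Basophil or mast-like cells had 2 of 7 members lower in TBM, where 4.26% of genes were lower and 6.37% higher. H2-K1 stood at 1079 CPM in CS, 785 in TS, 1051 in CBM, and 686 in TBM, and Tap1 at 82.1, 71.6, 106, and 59.8, so the tumor-bearing libraries were lower in each tissue, although the intervals of Tap1 overlap in spleen. Cluster c22 of this class held 229 cells in TBM and 44 in CBM, and within c2 and c10 the H2-K1 log2 ratios of TBM over CBM were −0.49 and −0.37. At resolution 2 the cluster led by Ccl3 held 63 TBM and 412 CBM cells, and that led by Ccl6 held 166 and 2. Basophil or mast-like values depended on the clustering, since at resolution 0.6 the Tap1 log2 ratio of TS over CS was −1.02 in place of −0.20, and that of Tap2 −0.53 in place of 0.06. Hemoglobin-rich erythroid-like cells had 1 of 6 lower (3.54% of genes lower, 3.17% higher), H2-K1, with a log2 ratio of −0.68 (−0.89 to −0.47). GMP-like cells had 0 of 7 past the call (2.35% of genes lower, 3.49% higher), with H2-K1 at −0.53 and B2m at −0.44. Cluster c9 held 305 of the 1383 GMP-like cells of TBM and 3 of the 314 of CBM, and within c3 2 of 7 members passed as lower, where 2.51% of genes were lower and 2.51% higher, with a median of −0.43. The resolution 2 cluster led by S100a8 and S100a9 held 94 TBM and 8 CBM cells, so the mix of cells within c3 may differ here too. B-lineage-like cells had 0 of 7 (12.5% of genes lower, 10.3% higher), with H2-K1 at 1285 in CBM and 942 in TBM. Megakaryocyte-like cells also had 0 of 7 (1.39% of genes lower, 1.82% higher), with H2-K1 at 894 and 723.

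The comparisons across tissues share libraries with those above, so they are given side by side and not as separate support. In CS over CBM, 2 of 41 pairs were higher (3.13% of all pairs) and 0 lower (1.43%), namely H2-T23 in GMP-like cells at 0.93 (0.68 to 1.19) and Tapbp in hemoglobin-rich erythroid-like cells at 0.67 (0.23 to 1.12). The H2-T23 call was lost without c24, at 0.41, and within c3, at 0.54 (0.20 to 0.87). B2m was higher in CS in 6 of 6 classes with each interval above 0, from 0.06 to 0.42, though the 0.06 of basophil or mast-like cells became −0.01 when scaled without hemoglobin, mitochondrial, ribosomal, and immunoglobulin genes or with cells weighted equally. The dissociation and immediate early genes were also higher in CS, in 37 of 42 pairs of a class and a gene (88.1%). They were higher in 15 of 47 pairs and lower in 1 in TBM over CBM, where 4.74% and 4.06% of all pairs were. In TS over TBM 18 of 34 were higher and 1 lower, where 5.05% and 3.16% were. In TS over CS 5 of 50 were higher and 20 lower, where 7.15% and 7.53% were. The part of these genes in the class I values was not tested. Of the members in TS over TBM, 0 of 33 pairs passed in either direction, where 5.05% of all pairs were higher and 3.16% lower. B2m was then higher in TS in 3 of 5 classes and lower in 2, with −0.11 (−0.14 to −0.07) in HSPC-like cells and 0.20 (0.15 to 0.25) in megakaryocyte-like cells. The HSPC-like cells of TS and TBM sat mostly in different clusters, as given above. As scaled here, CS had the highest B2m of the libraries in each class with at least 50 CS cells. In basophil or mast-like cells this was lost under the alternative scaling and weighting named above.

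Free RNA was also lower in the tumor-bearing library of each tissue. Beside the B2m levels above, its TS over CS log2 ratio was −0.49 for H2-K1, −0.71 for H2-D1, −1.19 for H2-T23, and −0.11 for Tap2, with 8 of 8 members below 0, and in TBM over CBM 7 of 8 were below 0. Across tissues 8 of 8 members were below 0 in the free RNA of TS over TBM (median −0.24), unlike B2m in most classes of cells, and 4 of 8 in CS over CBM. With 10% of each class subtracted in the profile of the free RNA, 50 of 55 member ratios in TS over CS were negative, as they were without the subtraction, and 45 of 56 in TBM over CBM.

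The balance between the class Ia heavy chains differed between cell classes, and also between clusters of 1 class. In basophil or mast-like cells of CBM the share of H2-K1 described below was 34.4% in c2 and 57.9% in c10. Cluster c10, led by Csrp3, Apoe, and Gata2, had 4 of the 10 markers of its class. At resolution 2 a cluster led by the same genes held 265 CBM cells and stayed unnamed, so c2 and c10 may hold unlike cells. H2-K1 made up 60.8% (60.2% to 61.4%, exact binomial) of the UMIs of H2-K1 and H2-D1 in HSPC-like cells of CBM, against 57.8% in CS, 56.3% in TS, and 56.7% in TBM. In monocyte-like cells the share was 43.3% in CBM, 35.2% in TBM, and 44.4% in CS, and in hemoglobin-rich erythroid-like cells it ran from 32.4% to 39.4%. The neutrophil-like cells of TBM had the lowest share, 15.8% (upper bound 19.0%), from 98 UMIs of H2-K1 and 521 of H2-D1. In BM the share was lower in TBM than in CBM in each of the 7 classes compared, with intervals apart in HSPC-like, GMP-like, monocyte-like, basophil or mast-like, and B-lineage-like cells, while in megakaryocyte-like cells the values were 56.5% and 54.8% and in hemoglobin-rich erythroid-like cells 39.4% and 34.9%. These class values also reflect the mix of clusters. Within c2 the shares were 34.4% in CBM and 32.8% in TBM, with overlapping intervals. Intervals lay apart within c10 (57.9% and 54.8%) and, for monocyte-like cells, within c14 (37.7% and 33.8%).

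**Figure D4:**
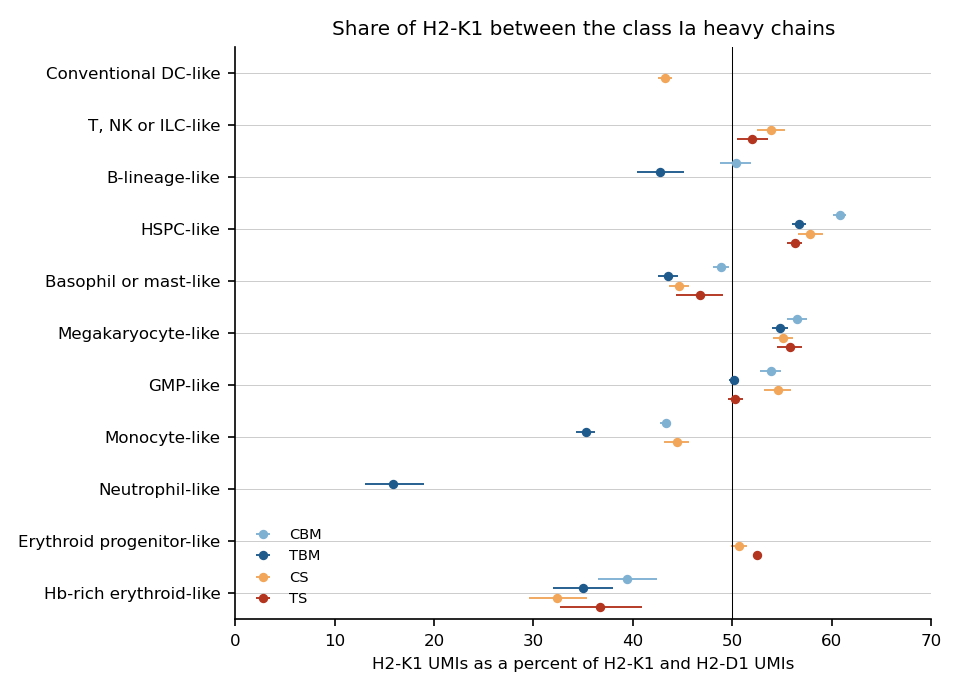
H2-K1 UMIs as a percent of all H2-K1 and H2-D1 UMIs by cell class (axis from 0 to 70%); each point is 1 library with its exact binomial 95% interval, and the line marks equal counts. HSPC-like, megakaryocyte-like, and T, NK, or innate lymphoid-like cells lie above 50% in each library drawn, with intervals clear of it. GMP-like and erythroid progenitor-like cells also lie above 50%, some with intervals that reach it, and neutrophil-like cells of TBM lie at 15.8%.

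Among the other genes of the pathway, the class Ib heavy chains H2-Q4, H2-Q6, and H2-Q7 were lower in TS in each class in which they were tested. Their median log2 ratios over the classes were −0.84, −1.36, and −1.25, while those of the members ran from −0.99 for Nlrc5 to 0.07 for Tap2. H2-Q7, which encodes a Qa-2 chain, stood in HSPC-like cells at 344 CPM in CS, 145 in TS, 281 in CBM, and 161 in TBM, so both tumor-bearing libraries were lower. Its TS over CS log2 ratio was −1.25 (−1.36 to −1.13), and in GMP-like cells it was at 26.8 in TS and 234 in CS (−3.12, −3.30 to −2.94). H2-Q7 passed the call as lower in 7 of 7 classes in TS over CS and in 6 of 7 in TBM over CBM, and H2-Q6 in 6 of 6 and 4 of 5, where 7.53% and 4.06% of all gene and class pairs were lower. Of the class Ib list, 4 of 6 genes tested were lower in TS in HSPC-like cells, with a median of −0.90, and 2 of 6 in TBM, with a median of −0.46, where 4.55% and 0.761% of genes were lower. Over all classes 6 of the 22 class Ib pairs called lower in TS and 5 of the 15 in TBM reached the mean of 20 CPM through the control library alone, while 0 of the 15 and 0 of the 4 pairs of the members did. The promoters of H2-Q6 and H2-Q7 hold the κB letters and interferon response core seen in H2-K1. That of H2-Q4 holds the core without these exact κB letters.

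Few of the genes for peptide supply and loading passed the call. Over all classes 4 of 65 pairs of a class and a gene were lower in TS than in CS (6.15%) and 2 higher (3.08%), where 7.53% of all pairs were lower and 7.15% higher. Of 10 tested in HSPC-like cells, 0 passed the call in either direction in TS over CS (median 0.13) or TBM over CBM (median 0.08). Psmb8, an immunoproteasome subunit, stood at 471 CPM in CS, 521 in TS, 425 in CBM, and 389 in TBM, and Psme2, a subunit of the PA28 proteasome activator, was higher in TS than in CS at 172 against 124. In GMP-like cells 1 of 10 was lower in TS, where 9.54% of all genes were, so the count is at the background. That gene, Erap1, an aminopeptidase that trims peptides, stood at 41.5 in TS and 64.4 in CS, and its ratio lay below 0 in 6 of 6 classes, with 3 intervals below 0. Tapbpl, a relative of tapasin, lay below 0 in 4 of 4 classes, with 1 interval below 0 and a median of −0.41. It passed in 2 of them, in basophil or mast-like cells through CS alone. Psmb9 was lower in the tumor-bearing library in 7 of 7 classes of both tissues, with medians of −0.28 in spleen and −0.41 in BM. The intervals lay below 0 in 4 spleen and 6 BM classes, and the gene overlaps Tap1 on the other strand.

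**Figure D5:**
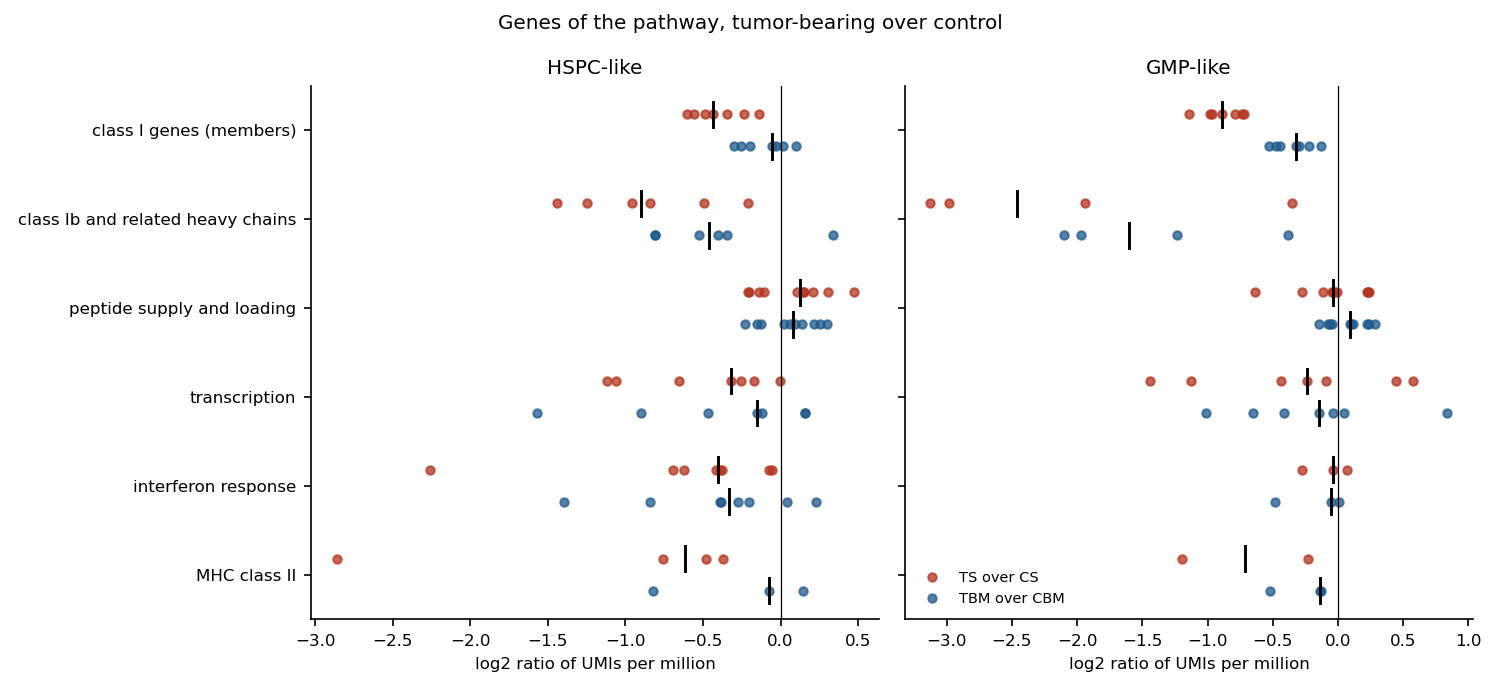
Log2 ratios of CPM, tumor-bearing over control, for the genes of each list with a mean of at least 20 CPM, in HSPC-like (left) and GMP-like cells (right); each point is 1 gene, black bars are list medians, red is TS over CS and blue TBM over CBM. The median of the class Ib genes is the lowest of the lists in both comparisons of both panels, though single genes of other lists lie lower in HSPC-like cells, and the genes for peptide supply lie around 0.

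Of the transcription factors listed, Irf1, which interferons induce, was lower in most of the spleen classes. Irf1 in HSPC-like cells stood at 114 CPM in CS, 72.4 in TS, 64.7 in CBM, and 46.9 in TBM, and it passed the call as lower in 5 of 6 classes in TS over CS and in 2 of 5 in TBM over CBM, against 7.53% and 4.06% of all pairs. In GMP-like cells of both tissues and in erythroid progenitor-like cells Irf1 was under 20 CPM in the tumor-bearing library. Irf8 was lower in HSPC-like cells in both tissues, at −1.06 and −1.57, but higher in GMP-like cells of TBM than of CBM, at 0.84. Nfkb1 and Rela did not pass the call as lower in any class of either tissue. Nfkb1 passed as higher in 2 of 6 classes in TS over CS, erythroid progenitor-like (0.76) and megakaryocyte-like cells (0.63), where 7.15% of all pairs did. Rela passed as higher in 1 of 6 in TBM over CBM, B-lineage-like cells (0.69), where 4.74% of all pairs and 10.3% of genes in that class did. Of the interferon response list, Iigp1 in HSPC-like cells stood at 38.1 CPM in CS, 7.93 in TS, 40.5 in CBM, and 15.4 in TBM, lower in both tumor-bearing libraries. In these cells 3 list genes were called lower in TS and 2 in TBM. All reached the mean of 20 CPM through the control library alone, so their number there is not read. Isg15 and Bst2 did not pass there. Counted over all classes, 9 of 39 pairs of a class and a list gene were lower in TS over CS and 2 higher. In TBM over CBM 8 of 32 were lower and 4 higher. Among all pairs 7.53% were lower and 7.15% higher in spleen, and 4.06% and 4.74% in BM. Of the list pairs called lower, 4 of the 9 and 3 of the 8 reached this mean through 1 library alone. Isg15 was lower in 2 of 4 classes in TS over CS and higher in 1 of 2 in TBM over CBM.

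Other sets of genes were recorded beside these values. Class II genes summed in HSPC-like cells to 367 CPM in CS, 215 in TS, 295 in CBM, and 234 in TBM, with 2 of 4 genes tested lower in TS, where 4.55% of all genes were lower and 3.39% higher. Cd74, 1 of these 2, stood at 35.2 in CS and 4.84 in TS and reached the mean of 20 CPM through CS alone. The dissociation and immediate early genes summed to 6510, 5508, 3497, and 3945, with 0 of 8 higher and 3 of 8 lower in TS, against the same shares of all genes. The part of either in the class I values was not tested.

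Across the 31 pairs of a class and a library, the members varied together to different degrees. The Spearman correlation between 2 members had a median of 0.73 over 28 pairs of members, from 0.51 for Tap2 with Tapbp to 0.94 for H2-K1 with Nlrc5. Of 3052 genes ranked by their correlation with the mean of the members, the nearest were Rfx7 (0.92), Atxn2l (0.91), Smg1 (0.91), Kdm2a (0.90), and Sept6 (0.89), with H2-Q6 at rank 31. These points share libraries, depth, and free RNA, so the correlations are descriptions only.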

How the data were processed

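The libraries were made with 10x Genomics 3′ chemistry. The authors used Cell Ranger 4.0 with mm10, and the deposited counts are whole numbers of UMIs for every barcode. Cell calling, the SoupX correction, and the 350-gene filter of the methods came later and are not in them.

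Cells were barcodes with at least 1000 genes and at most 10% mitochondrial UMIs. Counts were turned into Pearson residuals (theta 100) of 3000 variable genes, without the members, the pathway lists, and mitochondrial genes, and clustered on 50 principal components and 20 neighbors with Leiden (leidenalg 0.10.2) at resolution 1.2, which gave 40 clusters. Clusters were named from marker genes, and those with under 3 detected markers or leading genes against the name stayed unnamed. No doublet caller was run. Levels are summed UMIs scaled to CPM (numpy 2.4.6, scipy 1.17.1) with exact Poisson 95% intervals, and ratios have exact conditional intervals. A call needs a fold of 1.5 and a mean of 20 CPM, and classes need 50 cells in each library. A count of 0 was set to 3 counts and its ratio treated as a bound. The functions were tested on simulated data. Named were the 8 members, the genes of the pathway lists, list genes with the largest ratios, and the 5 genes most like the members. The H2-T10 gene of the class Ib list was not analysed here, which leaves 12. The promoter table has no entry for Tap2 or Nlrc5. The members and lists were chosen with earlier results of these data known. Motif variants were chosen after the promoters had been seen.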

Additional observations from a re-analysis of the deposited data

How the results depend on the processing

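With 1 library per group, leaving out a replicate was not possible. No paired analysis was possible because each group holds 1 library. No member ratio past the call changed sign in the alternatives run. Of 220 counts recomputed under 14 settings, 194 stayed within 1.5 times the values reported and 26 moved. Of single values, 766 of 2888 member levels and 258 of 2286 member ratios moved beyond their counting intervals, as did 243 of 248 shares of cells without thinning. The median of the members in GMP-like cells, −0.89 in TS over CS, was −1.45 without the mitochondrial limit, −1.89 with cells weighted equally, and −0.53 without c24. In HSPC-like cells, the 1 member lower in TS over CS became 0 with 10% free RNA subtracted, at resolutions 0.6 and 2, and at a fold of 2, and 2 of 8 when scaled without hemoglobin, mitochondrial, ribosomal, and immunoglobulin genes. The 15 pairs lower in TS over CS became 2 at a fold of 2, and 3 of 7 without any cell holding a class II UMI, which leaves 1 class with enough cells. The 4 pairs lower in TBM over CBM became 8 without the mitochondrial limit and 0 at a fold of 2. The 2 pairs higher in CS over CBM became 6 without the mitochondrial limit, 8 with cells weighted equally, 1 without the 5% of cells with the most UMIs, by marker UMIs per cell, or without the shallow cluster c24, and 0 without cells holding a class II UMI or at a fold of 2. The 0 pairs lower in TS over TBM became 1 with at least 350 genes, without the mitochondrial limit, without the cells with the most UMIs, by marker UMIs per cell, at resolution 2, without cells holding a class II UMI, or with at least 20 cells, 2 at resolution 0.6, and 3 with cells weighted equally, where 1 pair was also higher. The causes were not tested, apart from the smaller number of cells or the stricter fold that some settings impose. The settings on class II UMIs and on c24 were chosen after seeing the data. Assigning cells by marker UMIs put 9035 of 11600 named cells in the same class as the clusters, and 3085 lay near its cut.

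Counting error limits Nlrc5, Tap2 and Tap1 in the smaller classes, and nothing here measures the spread between mice.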

Other observations

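Cells in clusters without a name made up 47.6% of CS and 27.4% of TS and belong to no class above. In cluster c4, led by Scin, St8sia6, and Sox4, with 368 CS and 428 TS cells, B2m stood at 1609 CPM in CS and 997 in TS, H2-K1 at 1228 and 877, Tapbp at 68.4 and 41.7, and Nlrc5 at 26.6 and 10.2, while Tap2 stood at 106 and 113. In cluster c7, led by Apoe, H2-Q7, and Ass1, with 555 CS and 139 TS cells, Tap2 was higher in TS at 84.7 against 54.2 (log2 ratio 0.64, 0.45 to 0.84) and H2-T23 at 127 against 94.9, while B2m was lower at 1008 against 1206. These clusters were chosen after their values were seen.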
